A study of Bos taurus with 8 samples.

Results

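The let-7 family with miR-98 was taken by name from a bovine microRNA (miRNA) array: every entry called bta-let-7 with a letter from a to i and any arm suffix, and bta-miR-98. That gave 10 of the 763 miRNAs on the array, and all 10 were among the 270 tested, for which 1 breed or both had to show detection on its 4 arrays. The tissue was mammary gland from 8 healthy non-pregnant heifers: 4 Holstein-Friesian, a dairy breed, and 4 Limousin, a beef breed. The sample characteristics give an age of 20 months and the protocol gives 2 years. Each animal had 1 one-colour array, the groups differ in breed and carry no treatment, and the design asks which mammary miRNAs differ between dairy and beef animals.

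The let-7 miRNAs are a conserved family that was found as a switch of developmental timing in worms. Each is cut from a hairpin, and the members of the 5p side share the seed, the stretch near the 5′ end that pairs with messenger RNA; the RNA-binding protein LIN28 blocks their maturation, and RAS, MYC and HMGA2 are well-known targets. In mammary epithelium let-7 is known for being low in progenitor cells and higher in differentiated ones.

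The members differ from one another in few bases, and an array sees them only through short DNA probes that are complementary to a stretch of the miRNA. The longest probe of each member is shown to let a reader judge how close the measurements lie to each other. Sequences are those of the scanner files, written 5′ to 3′, and capitals mark a base that differs from the probe of bta-let-7a-5p; bta-let-7a-3p is the other arm of the let-7a hairpin and was not aligned.
bta-let-7a-5p: aactatacaacctactacct
bta-let-7b: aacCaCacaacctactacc
bta-let-7c: aacCatacaacctactacc
bta-let-7d: aactatGcaacctactacc
bta-let-7e: actatacaacctCctacct
bta-let-7f: aactatacaaTctactacctc
bta-let-7g: aactGtacaaActactacctc
bta-let-7i: aacAGCacaaActactacctc
bta-miR-98: aacAatacaacTtactacctc
bta-let-7a-3p: gaaagacagtagattgtatag

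Positions are counted from 1 at the 5′ end of the let-7a-5p probe, and the let-7e probe starts at its second base. The probes of let-7c, let-7d, let-7e and let-7f were each 1 base away from let-7a-5p (T4C, A7G, A14C and C11T). Those of let-7b (T4C and T6C), let-7g (A5G and C11A) and miR-98 (T4A and C12T) were 2 bases away. The let-7i probe was 4 bases away, by T4A, A5G, T6C and C11A, and 2 from let-7g. Over the 36 pairs of 5p-side probes the distance ran from 1 to 5 bases, with 5 pairs 1 base apart. Signal of one member in the probe of another was not measured, so the separate values of the close pairs are uncertain.

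The array annotation places the longest probe of let-7b at chr5:117120194-117120211, of let-7c at chr1:19930473-19930490, of let-7d at chr8:86887442-86887459 and of let-7e at chr18:58015046-58015063 (build UMD 3.1). The longest probes of let-7g, let-7i and miR-98 lie at chr22:49189346-49189365, chr5:51209088-51209107 and chrX:96382651-96382670. These spans are given as the annotation lists them, 1 base shorter than the probe. The shorter let-7f probe has 1 position on each of chr8:86885233-86885252 and chrX:96383541-96383560. The RefSeq gene table (assembly ARS-UCD2.0) holds 12 genes for the family, among them 3 of let-7a and 2 of let-7f, whose products an array cannot part. In that table let-7a-1, let-7f-1 and let-7d lie together, let-7a-3 lies beside let-7b, and let-7f-2 and miR-98 lie together within HUWE1, a ubiquitin ligase gene. The gene of let-7g lies within WDR82, and let-7i has no other miRNA gene within 100 kb.

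The 8 arrays shared 1 slide and 1 scan. Holstein-Friesian samples filled the first row of the slide and Limousin samples the other, so slide row and breed cannot be told apart. Between 28.6% and 35.5% of the 45780 spots per array were well above background, 243 to 297 miRNAs were detected, and no spot was saturated. The Limousin arrays were brighter, by 0.85 on the log2 scale at the 75th percentile to which the signals were scaled, while the labelling spike-ins differed by 0.075. Differences between breeds are relative to that scaling, under which the median over the 270 miRNAs was -0.069. The 6 epithelial marker miRNAs (the miR-200 family and miR-205) were detected on all 8 arrays, with summed scaled signals of 17792 to 19968 in Holstein-Friesian and 18822 to 20644 in Limousin. Sums for the 5 stromal and smooth muscle markers were 9036 to 9778 and 9360 to 10957, with miR-199a-3p and miR-199a-5p passing the test upward. In that list miR-145, miR-143 and miR-214 did not pass, with log2 differences of -0.23, -0.064 and 0.0048. Every Limousin array lay below every Holstein-Friesian array for miR-145. For the 5 leukocyte markers the sums were 1027 to 1540 and 1478 to 1896, with miR-142-5p and miR-155 passing upward and miR-142-3p detected on no array. The leukocyte markers miR-150 and miR-223 did not pass, at 0.022 and -0.15. Of the 3 erythroid markers miR-451 was detected on all 8 arrays and miR-144 and miR-486 on none, with sums of 42.4 to 149 in Holstein-Friesian and 42.5 to 59.6 in Limousin. Of the 3 skeletal muscle markers miR-206 was detected on no array and the other two on some but not all, with sums of 33.9 to 59.8 and 27.9 to 66.9. miR-122 of liver and miR-124a and miR-9-5p of neural tissue were detected on no array. The part of these cell types in the let-7 values was not tested, and in whole tissue a change in cell numbers and a change per cell cannot be told apart.

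Of the 10 members, bta-let-7i and bta-let-7e were higher in Limousin, none was lower, and 8 did not pass (limma with Benjamini-Hochberg adjustment over the 270 miRNAs, threshold 0.05). Over all 270 miRNAs 13.7% were higher and 28.1% lower. The difference was above 0 for all 9 members of the 5p side and below 0 for bta-let-7a-3p, where 117 of the 270 miRNAs were above 0. The median difference of the 10 was 0.23 on the log2 scale. The members stand on probes that are long and poor in GC: for the 9 of the 5p side the median was 20 bases and 42.1% GC, against 17 bases and 50% over all tested. When every array was corrected for the length and GC content of its probes, no member was higher and 1 (let-7a-3p) was lower. Of all 270 miRNAs 26 were then higher and 52 lower. The median was -0.16 over the members and -0.14 over all 270.

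Signals are given as log2 of the scaled spot intensity, in the order of replicates 1 to 4. They were not set against each other between members, since each probe binds with its own strength.

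The largest change in the family was that of bta-let-7i, whose gene on chromosome 5 lies within a transcribed pseudogene. Its signal was 9.56, 9.89, 9.65 and 9.87 in Holstein-Friesian and 10.25, 10.42, 10.37 and 10.74 in Limousin. The lowest Limousin array lay 0.36 above the highest Holstein-Friesian array, so the breeds did not overlap. The mean rose from 9.74 ± 0.16 (SD, n = 4) to 10.45 ± 0.21 (SD, n = 4), a log2 difference of 0.70 (SE 0.14) and 1.63-fold (95% confidence interval 1.32 to 2.02; limma adjusted p = 0.0043). Its difference ranked 13 of 270 from the top. Leaving out any 1 array kept the call, with adjusted p from 0.0011 to 0.0165. The GC and length correction ended it, at 0.24 (limma adjusted p = 0.128).

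The second member past the threshold was bta-let-7e, whose gene on chromosome 18 lies beside those of miR-99b and miR-125a. It read 9.69, 9.83, 9.80 and 9.82 in Holstein-Friesian and 10.18, 10.14, 10.001 and 10.33 in Limousin. All Limousin arrays were above all Holstein-Friesian arrays, by 0.17 at the closest. The log2 difference was 0.38 (SE 0.11), or 1.30-fold (95% confidence interval 1.097 to 1.54; limma adjusted p = 0.0208). The call was lost without Holstein-Friesian replicate 4, Limousin replicate 1 or Limousin replicate 4 (limma adjusted p = 0.0520, 0.0670 and 0.0537), and after the GC and length correction (0.11; limma adjusted p = 0.365).

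bta-let-7g and bta-let-7f came next in size, without passing. bta-let-7g read 10.30, 10.73, 10.49 and 10.58 in Holstein-Friesian and 10.76, 10.82, 10.74 and 11.16 in Limousin. The breeds did not overlap, but by 0.017 only, and the log2 difference was 0.35 (SE 0.14; limma adjusted p = 0.0665). bta-let-7f, the product of 1 gene in the let-7a cluster and 1 beside miR-98, read 13.17, 13.35, 13.26 and 13.27 in Holstein-Friesian and 13.59, 13.46, 13.40 and 13.77 in Limousin. Its log2 difference was 0.29 (SE 0.12; limma adjusted p = 0.0665), again without overlap. Both passed without Holstein-Friesian replicate 2, with limma adjusted p = 0.0186 for let-7g and 0.0353 for let-7f, and both passed when the background was modelled with normexp (limma adjusted p = 0.0295 and 0.0219). The GC and length correction turned both, to -0.14 for let-7g and -0.21 for let-7f.

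bta-miR-98 and bta-let-7a-5p also had every Limousin array above every Holstein-Friesian array, by 0.012 and 0.029 at the closest. bta-miR-98, which lies beside let-7f-2, read 7.35, 7.60, 7.50 and 7.53 in Holstein-Friesian and 7.75, 7.65, 7.61 and 8.004 in Limousin (log2 difference 0.26, SE 0.12; limma adjusted p = 0.114). Its difference was 0.037 with the normexp background, 0.069 with no background correction and -0.24 after the GC and length correction. bta-let-7a-5p, to which 3 genes contribute, read 13.92, 13.87, 13.87 and 13.84, then 14.11, 13.98, 13.95 and 14.25 (log2 difference 0.20, SE 0.11; limma adjusted p = 0.179). The Holstein-Friesian arrays spread less (SD 0.031, n = 4) than the Limousin arrays (SD 0.14, n = 4). In all, 6 of the 10 members had their 4 Limousin arrays above the 4 Holstein-Friesian arrays and 0 the reverse, where 15.9% and 20.7% of the 270 miRNAs did. Counted in either direction, the members without overlap were 2 with median scaling, 3 with the mean of all probes and 1 after the GC and length correction. They were 9 with the 75th percentile over all probes or the deposited values, and 10 with no scaling or spike-in scaling. The share of all tested miRNAs without overlap was not counted under these settings. The median difference over all tested was 0.26 and 0.25 under the former pair, and 0.78 and 0.71 under the latter.

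The breeds overlapped for bta-let-7b, bta-let-7c and bta-let-7d. bta-let-7b, whose gene lies beside let-7a-3, read 13.68, 13.32, 13.44 and 13.47 in Holstein-Friesian and 13.58, 13.51, 13.57 and 13.74 in Limousin, so that 1 Holstein-Friesian array lay within the Limousin range. Its log2 difference was 0.12 (95% confidence interval -0.14 to 0.38; limma adjusted p = 0.442). bta-let-7c, on chromosome 1 beside miR-99a, read 13.04, 12.75, 12.85 and 12.88, then 13.06, 12.90, 12.95 and 13.23, with a difference of 0.16 (-0.11 to 0.42; limma adjusted p = 0.329). bta-let-7d, of the let-7a-1 cluster, read 10.67, 10.67, 10.59 and 10.54, then 10.75, 10.60, 10.62 and 10.86, with a difference of 0.089 (-0.15 to 0.33; limma adjusted p = 0.548). These 3 intervals contain 0. Without Limousin replicate 4 the differences were 0.075 for let-7b, 0.091 for let-7c and 0.040 for let-7d. Leaving out any 1 array gave 0.073 to 0.20, 0.091 to 0.22 and 0.040 to 0.12 in the same order.

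**Figure D1:**
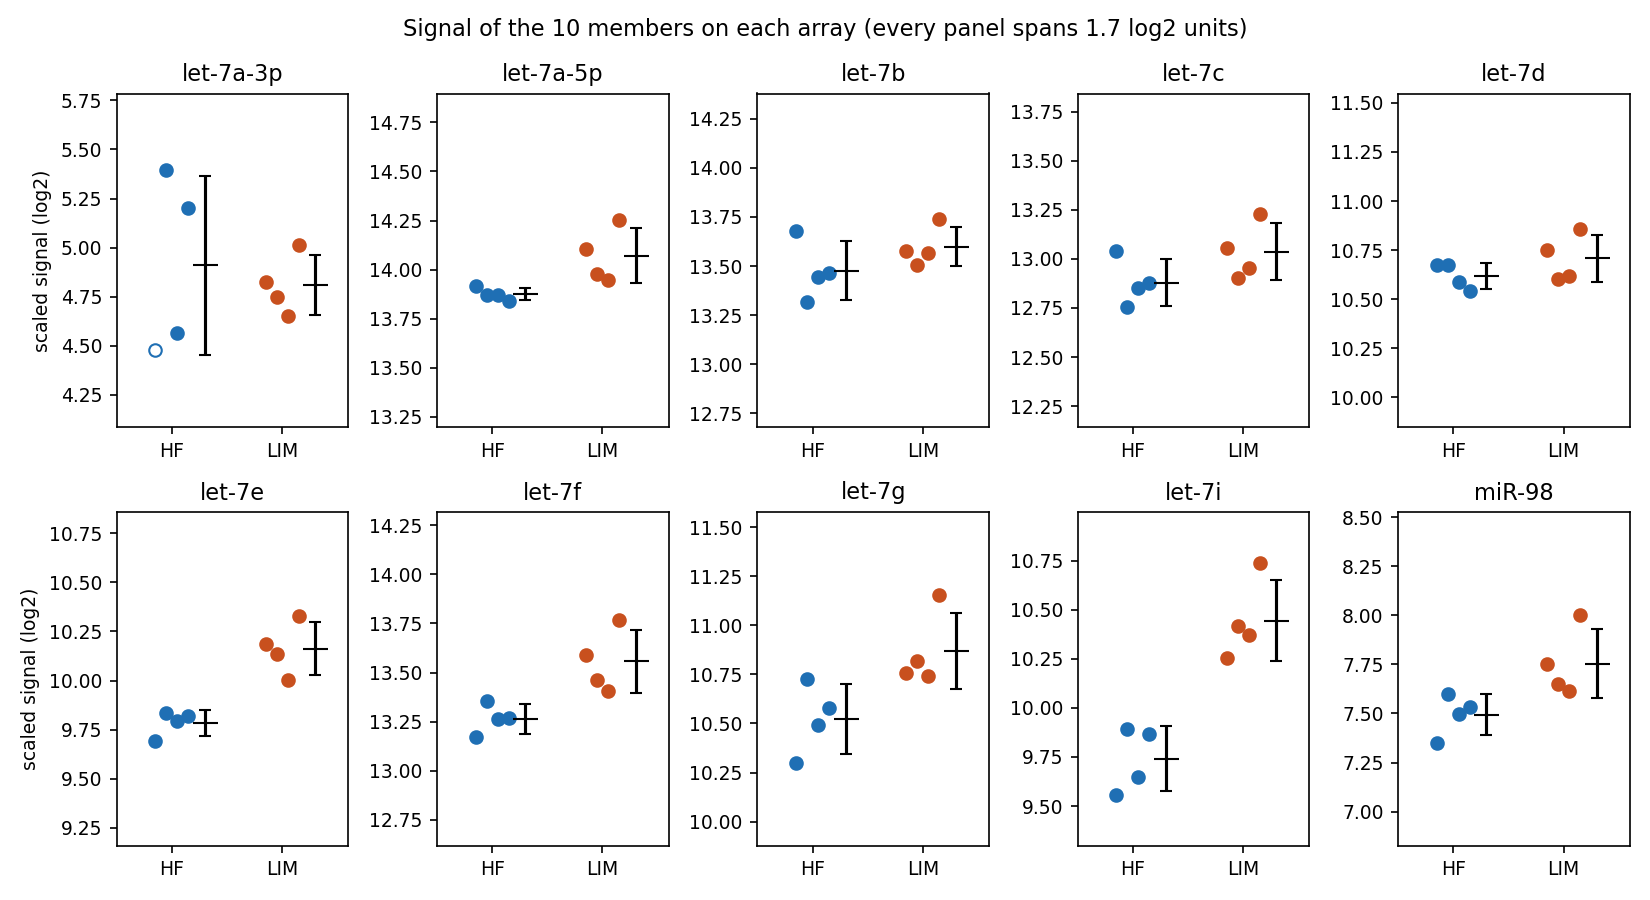
Scaled log2 signal of each member on the 4 Holstein-Friesian (HF, blue) and 4 Limousin (LIM, orange) arrays, with mean and SD in black and an open circle where the member was not detected. Every panel spans the same range; the Limousin points of let-7i lie 0.36 or more above the Holstein-Friesian points, while those of let-7b and let-7d overlap.

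**Figure D2:**
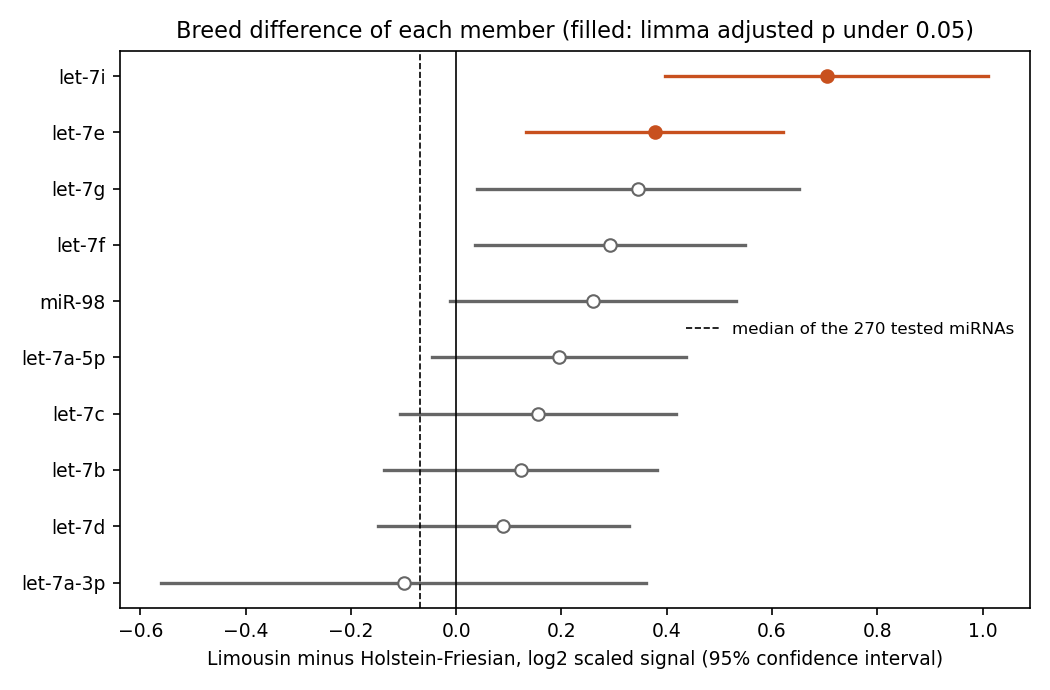
Limousin minus Holstein-Friesian difference of each member on the log2 scale, with its 95% confidence interval from limma; filled orange points passed an adjusted p under 0.05, and the dashed line is the median of all tested miRNAs (-0.069). let-7i, at 0.70, and let-7e, at 0.38, are the filled points.

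bta-let-7a-3p, the passenger arm that is mostly discarded when the hairpin is processed, was near the detection limit. It was well above background on 7 of the 8 arrays, all but Holstein-Friesian replicate 1, and through only 1 of its 4 probes, the one of 21 bases. Its signal was 4.48, 5.39, 4.56 and 5.20 in Holstein-Friesian and 4.82, 4.75, 4.65 and 5.01 in Limousin. The Holstein-Friesian values fell into a low pair and a high pair with the Limousin values between them, and the log2 difference was -0.099 (SE 0.21; limma adjusted p = 0.719). Its direction changed with the processing. With no scaling the difference was 0.75 (limma adjusted p = 0.0184), and after the GC and length correction it was -0.60 (limma adjusted p = 0.0230). It was -0.55 with the normexp background and -0.54 with no background correction (limma adjusted p = 0.0079 and 0.0088). Without Holstein-Friesian replicate 2 the difference was 0.066.

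The difference between the 2 arms of let-7a on one array does not change when a whole array is multiplied by 1 factor, as long as both signals stay above the floor. The 5p signal exceeded the 3p signal by 9.44, 8.48, 9.31 and 8.64 log2 units in Holstein-Friesian and by 9.28, 9.23, 9.29 and 9.24 in Limousin. The 9.44 of Holstein-Friesian replicate 1 was taken against a 3p probe that was not well above background there. These are differences between probes and not a ratio of molecules, so only the change between the breeds was compared. The mean was 8.97 ± 0.48 (SD, n = 4) in Holstein-Friesian and 9.26 ± 0.032 (SD, n = 4) in Limousin, a change of 0.30 (two-sided exact permutation test, p = 0.429; the smallest p that 4 against 4 arrays allow is 0.0286). The Limousin arrays lay within the Holstein-Friesian range. Without Holstein-Friesian replicate 1 the change was 0.45 (exact permutation p = 0.143). With all 8 arrays the change grew to 0.80 with the normexp background and to 0.78 with no background correction (exact permutation p = 0.0286 for each). Normexp adds an offset of 50, and the other setting keeps the background in the signal. The arm difference is then not free of array brightness. Under these settings the median breed difference over all tested miRNAs was -0.38 and -0.36. With quantile normalization the arm change was -0.046 (exact permutation p = 0.857).

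Setting each 5p-side member against the mean of the other 8 on the same array removes the brightness of the array and shows whether the family moved as 1 block. Values were centred over the 8 arrays, and since the members were known to differ, this is a description without a test. let-7i lay at -0.41, -0.11, -0.32 and -0.11 in Holstein-Friesian and at 0.043, 0.30, 0.28 and 0.33 in Limousin, a shift of 0.47 against the other members with no overlap. let-7e shifted by 0.11, with Holstein-Friesian arrays from -0.12 to -0.014 and Limousin arrays from -0.0050 to 0.11. Each member is also part of the mean for the others, so the shifts balance out over the members by construction. A rise of let-7i alone thus lowers the values of the rest. let-7d shifted by -0.22, from 0.0038 to 0.20 in Holstein-Friesian to between -0.18 and -0.037 in Limousin. Its own log2 difference was 0.089, so let-7d was lower in Limousin only against the other members. The other 6 overlapped between the breeds, with shifts from -0.18 for let-7b to 0.071 for let-7g. Over the main setting and 24 alternatives, some of which cannot change this measure, the let-7i shift stayed between 0.37 and 0.54 and the breeds did not overlap under any of the 25. For let-7e the breeds did not overlap in 22 of the 25; they overlapped with quantile normalization, the mean of all probes and the deposited values, and the shift ran from 0.080 to 0.23. After the GC and length correction the shift of let-7d was -0.093 with the breeds overlapping.

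**Figure D3:**
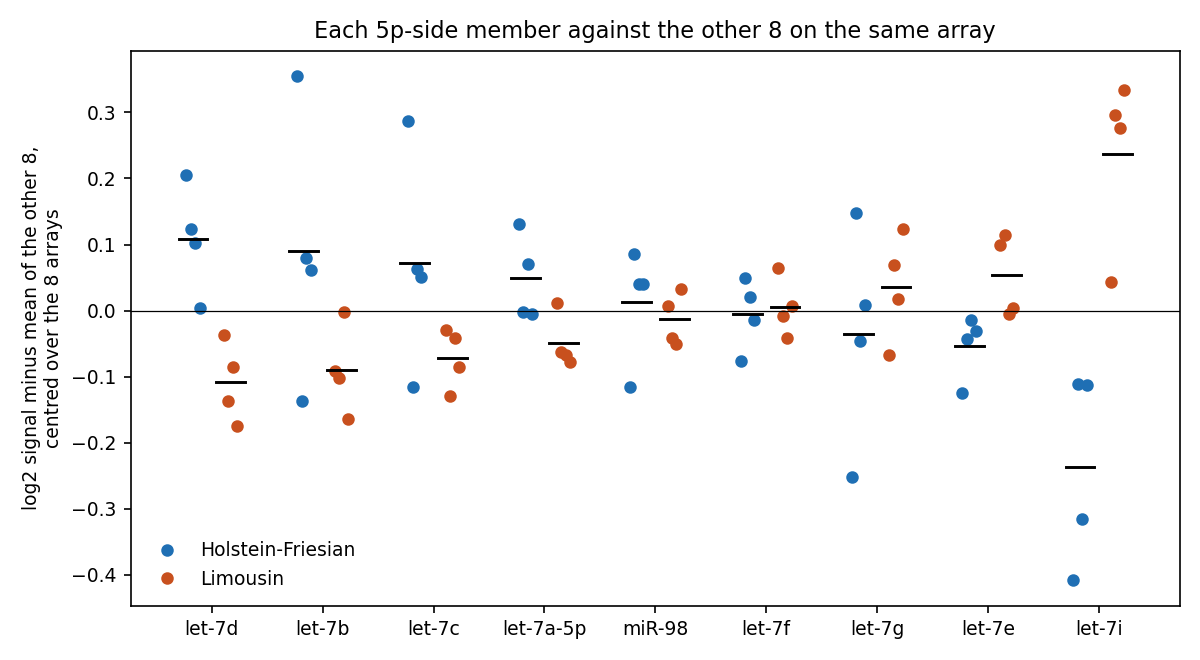
Log2 signal of each 5p-side member minus the mean of the other 8 on the same array, centred over the 8 arrays; points are arrays (blue Holstein-Friesian, orange Limousin) and bars are breed means. let-7i parts the breeds most, by 0.47, and let-7d is lower in Limousin by 0.22 against the rest of the family. The shifts balance out over the members by construction.

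Single arrays stood out in different ways among the members. Each animal had 1 array, so animal and array cannot be told apart here. Limousin replicate 4 had the highest Limousin signal for 10 of the 10 members, and without it the let-7i difference was 0.61. For how many of all tested miRNAs this array was highest was not counted. In Holstein-Friesian, replicate 1 had the lowest signal for 6 members, let-7e, let-7f, let-7g, let-7i, miR-98 and let-7a-3p, and the highest for 3, let-7a-5p, let-7b and let-7c. Replicate 2, the array with the fewest miRNAs detected (243), had the highest signal for 7 members and the lowest for let-7b and let-7c. Against the other members, let-7b lay at 0.36 in replicate 1 and at -0.14 in replicate 2, let-7c at 0.29 and -0.12, and let-7g at -0.25 and 0.15. The spread of let-7b and let-7g against the rest was thus wider in Holstein-Friesian (SD 0.20 and 0.17, n = 4) than in Limousin (SD 0.067 and 0.081, n = 4).

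Each 5p-side member had 2 probes that differ in length by 1 base, with up to 30 spots each, and both probes moved the same way in all 9. The longer probe was brighter on average in each, by 0.23 log2 units for let-7i and by 2.24 for miR-98 in Limousin. The breed difference of the 2 probes was 0.70 from each probe of let-7i, 0.37 and 0.38 from the shorter and longer probe of let-7e, and 0.19 and 0.26 for miR-98. The gap between the 2 estimates was largest for let-7d, at 0.015 and 0.089. Across the spots of 1 probe on 1 array the median SD was between 0.069 for let-7d and 0.12 for let-7i, and 0.24 for let-7a-3p. The SD between animals of a breed was taken on array means of these spots and pooled over the breeds. It ran from 0.097 for let-7d to 0.19 for let-7i and 0.34 for let-7a-3p. The standard error of such a mean within 1 array (median over arrays) was 0.013, 0.023 and 0.061 in the same order.

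Genes of miR-99, miR-100 and miR-125 lie beside let-7 genes in mammals, and in the RefSeq table miR-125b-2 and miR-99a neighbour let-7c, miR-125b-1 and miR-100 neighbour let-7a-2, and miR-99b and miR-125a neighbour let-7e. The array holds 6 such entries, all tested, and 0 of the 6 passed in either direction, where 13.7% of all tested miRNAs were higher and 28.1% lower. Beside let-7e, which rose by 0.38, the differences were -0.22 (95% confidence interval -0.57 to 0.13; limma adjusted p = 0.303) for miR-99b and -0.35 (-0.77 to 0.077; limma adjusted p = 0.175) for miR-125a. The difference between let-7e and its neighbours was not tested. Beside let-7c, at 0.16, miR-99a-5p was at 0.035, its other arm miR-99a-3p at -0.15 and miR-125b at -0.041, and miR-100 was at 0.054. Holstein-Friesian replicate 2 had the lowest Holstein-Friesian signal for all 6, as for miR-125b, at 13.92 against 14.60, 14.51 and 14.34. Without that array 1 of the 6 passed.

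The gene table also places miR-3596 beside let-7b. Its probes on the array read the strand opposite to let-7, sharing a run of 15 bases with the reverse complement of the let-7b probe. It was detected on 0 of the 8 arrays.

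The miRNAs outside the family whose course over the 8 arrays was most like the mean of the 9 members were found by the smallest root mean square difference of centred log2 signals, among 260 others. They were miR-27b (0.067), miR-199a-5p (0.076), which is also 1 of the stromal markers, miR-185 (0.077), miR-409a (0.085) and miR-25 (0.090), against a median of 0.30 over the tested miRNAs. Their log2 differences were 0.36, 0.36, 0.34, 0.34 and 0.33, a size that this choice largely sets. Within the family let-7f was nearest to the mean, at 0.039, and let-7i farthest on the 5p side, at 0.24.

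The size of every difference depends on what the arrays are scaled to. With no scaling, or with scaling to the spike-ins, all 10 members passed upward, but so did 173 of the 270 miRNAs in each case, and the median over all tested was 0.78 and 0.71. In the values the authors deposited, 9 members passed upward, with let-7i at 0.98 and let-7a-5p at 0.47, where the median over all tested was 0.25. The 9 members of the 5p side kept a positive difference under each of the 6 scalings tried, and the direction turned for 7 of them after the GC and length correction, which left let-7i and let-7e above 0.

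**Figure D4:**
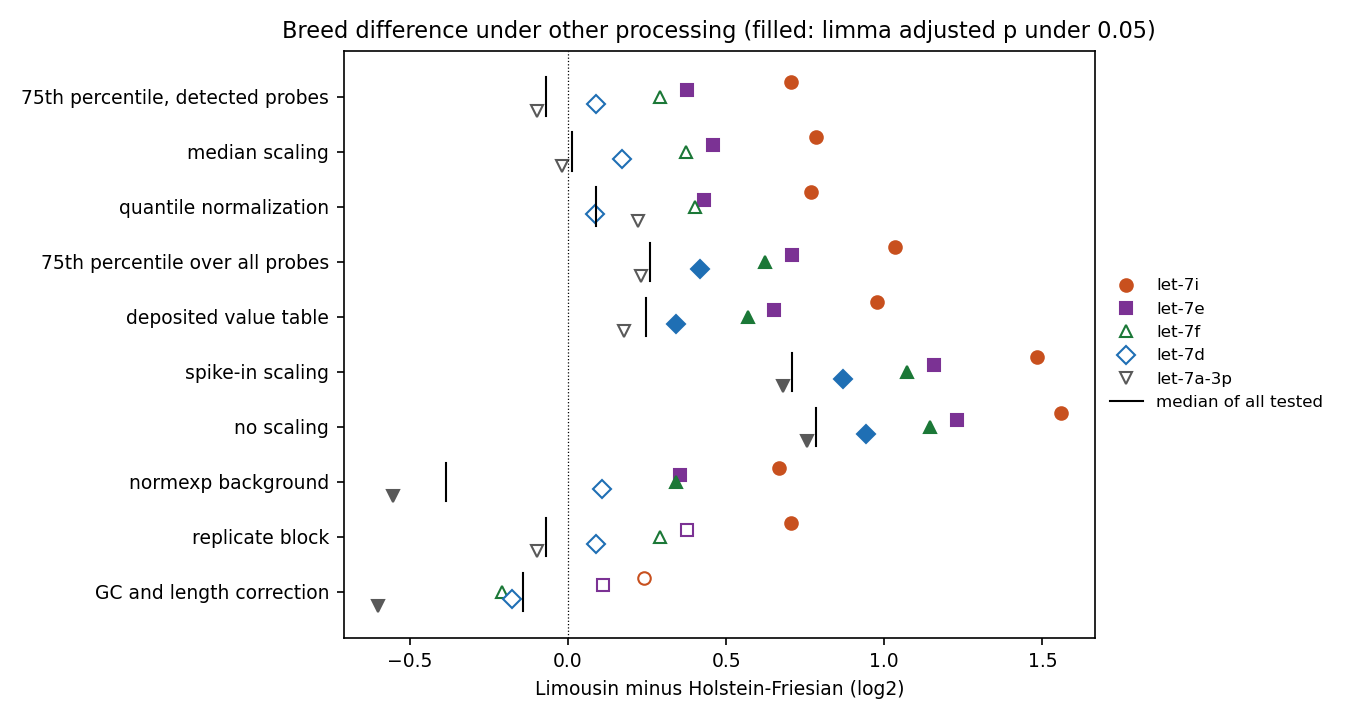
Breed difference on the log2 scale of 5 members under 10 ways of processing, with the median of all tested miRNAs as a black tick; filled symbols passed a limma adjusted p under 0.05. let-7i is the rightmost member in each row, and the whole set moves with the scaling.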

How the data were processed

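Per the labels' protocols, 100 ng of total RNA per mammary sample (8 samples) received a Cyanine 3-pCp label and went onto 1 array each. The deposited spot intensities had been background-subtracted by the authors with Agilent Feature Extraction 10.10.1.1, per the file headers, and were not normalized between arrays. The authors' deposited value table holds log2 values equal to the total signal per miRNA minus a constant per array, as read from the values (largest departure 9.7e-06; column medians -9.79 to -8.53).

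Outlier spots were dropped and spots averaged per probe. Detection of a probe required over 50% of its spots to be well above background. Signals were scaled to the 75th percentile of the probes detected on all 8 arrays, floored at 1 and logged (log2), and the probe of highest mean stood for its miRNA. The 270 miRNAs detected throughout 1 breed or both (4 arrays each) entered 1 limma 3.58.1 fit (R 4.3.3) on breed alone, adjusted by Benjamini-Hochberg, with a threshold of 0.05. Differences are Limousin minus Holstein-Friesian. The fit was tested on simulated data with the spread of these miRNAs. It recovered 30.2% of changes of 0.35 log2 units, 75.2% of 0.7 and 98% of 1.4, so changes near 0.35 were mostly missed. The labels call the samples biological replicates. All members are named, with any partner past the threshold (otherwise the 3 of smallest p; the rest were named after their values were seen) and the 5 most similar miRNAs; the search for shared seeds in the rule was not run. Members, lists and alternatives were chosen with earlier results of these data known. The comparison of each member with the other 8 was added after its values were seen.

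The deposited table, 5 other scalings, 2 backgrounds, probe summary, filter, floor, variance trend, a replicate block, a probe GC and length correction, and leaving out each array served as alternatives.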

Additional observations from a re-analysis of the deposited data

How the results depend on the processing

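Of 24 alternatives, 8 left out 1 array each; bta-let-7i stayed past the threshold in all but the GC and length corrections. With the 75th percentile over all probes 9 members were higher, with 104 miRNAs higher and 30 lower in all and a members' median of 0.56. With quantile normalization 4 members were higher, with 55 miRNAs higher and 43 lower in all. The members' median there was 0.39 and the let-7a arm change -0.046. With no scaling and with spike-in scaling 10 members were higher, 10 did not overlap, 5 partners passed, 173 miRNAs were higher, 2 and 4 were lower, and the medians were 1.08 and 1.01. With the deposited values 9 members were higher, 81 miRNAs were higher, 28 were lower and the median was 0.50. With the normexp background and with none, 4 members were higher, 1 was lower and 2 partners passed. In all, 26 and 27 miRNAs were higher and 146 and 143 lower, and the arm change was 0.80 and 0.78. Median scaling left 2 members without overlap and the mean of all probes 3. The share of all tested miRNAs without overlap was counted in the main setting only.

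After the GC and length correction 0 members were higher, 1 was lower and 1 did not overlap. The median was -0.16, and all of these were the same with and without the replicate block. In all, 26 miRNAs were higher and 52 lower without the block, and 20 and 41 with it. Differences there were -0.20 for bta-let-7a-5p, -0.12 for bta-let-7b, -0.11 for bta-let-7c, -0.18 for bta-let-7d, -0.21 for bta-let-7f, -0.14 for bta-let-7g and -0.24 for bta-miR-98. bta-let-7a-3p turned to 0.23 with the 75th percentile over all probes, 0.22 with quantile normalization, 0.75 with no scaling, 0.68 with spike-ins, 0.18 in the deposited values and 0.066 without Holstein-Friesian replicate 2. The causes were not tested.

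Leaving out 1 array gave 1 to 4 members higher, 6 to 8 without overlap, 0 to 1 partners, 24 to 57 miRNAs higher, 47 to 93 lower, medians of 0.16 to 0.27 and arm changes of 0.13 to 0.45. The 4 were without Holstein-Friesian replicate 2, and the count was 1 without Holstein-Friesian replicate 4, Limousin replicate 1 or Limousin replicate 4. Deviations of same-numbered arrays correlated at -0.31, -0.25, -0.45 and 0.32, so the numbers were not taken to pair animals. In both breeds the replicate number was also the column on the slide, so a block on it is a block on slide column too. The fit with this block called 1 member higher, bta-let-7i (limma adjusted p = 0.0119), and not bta-let-7e (0.0823). In all, 25 miRNAs were higher and 59 lower in that fit. With 4 arrays per breed the number of arrays limits the precision, and bta-let-7a-3p lies near background.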
